A study of Ovis aries with 32 samples.

Results

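Lipoprotein lipase (LPL) and its partners in the uptake of fatty acids were followed through 4 fat depots of sheep that had been exposed to excess testosterone before birth and of unexposed sheep. The group was defined by name and not by measured values: a list of 10 symbols (LPL, CD36, FABP4, FABP5, ACSL1, GPIHBP1, VLDLR, CAV1, CAVIN1 and SLC27A1) was looked up in the count table, which holds 28524 genes. Rows were found for 9 of the 10, and all 9 passed the filter on low counts in every comparison. CD36, a fatty acid receptor of adipocytes, was not analysed here.

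Fat cells cannot take up triglyceride as such. LPL, secreted by adipocytes and carried across the capillary wall by the endothelial protein GPIHBP1, splits the triglyceride of circulating lipoproteins into free fatty acids, and the lipoprotein receptor VLDLR holds the particles near it. The fatty acids cross the adipocyte membrane with the help of CD36 and of the transport protein SLC27A1 (FATP1), in membrane pits called caveolae that are built from CAV1 and CAVIN1, and inside the cell FABP4 and FABP5 bind them while ACSL1 couples them to coenzyme A for storage or oxidation.

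The series holds 32 libraries from 8 adult female sheep (Ovis aries), each from a different mother, with 4 sheep in each of 2 treatments and 4 depots from every sheep, and asks which depots are changed in a sheep model of polycystic ovary syndrome. The mothers of the testosterone sheep had been injected with testosterone propionate in corn oil, 100 mg or 1.2 mg/kg per injection and 2 injections per week, between days 30 and 90 of gestation, whereas the control sheep came from pregnancies without that treatment. All sheep of both treatments had lost their ovaries as adults, after the second breeding season, and carried the same steroid implants, a 1 cm estradiol implant, 2 with progesterone for 14 days and then 4 with estradiol for 18 h before tissue was taken, so that no group shows fat under the animal's own ovarian cycle. The depots were epicardial fat, lying between heart muscle and its serous covering, visceral fat from the mesentery around the rumen, perirenal fat and subcutaneous fat from the breast. Levels are given as CPM, counts of 3′ end reads scaled to the size of the library, and the 4 values of a group follow the animal numbers, 48, 185, 233 and 255 for testosterone sheep and 98, 131, 132 and 201 for control sheep.

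Total counts per library ran from 784135 to 8267824. The adipocyte hormone ADIPOQ was found in all 32 libraries, at 2419 CPM or more, so each held adipocyte RNA, whereas the brown fat marker UCP1 did not exceed 7.88 CPM in any. Some libraries stood apart from their groups. ARGLU1, a transcript with a nuclear, intron-retaining form, stood at 25675 CPM in subcutaneous fat of testosterone sheep 48 and at 18437 CPM in visceral fat of testosterone sheep 255, against at most 4737 CPM in the other 30 libraries. HOXC6, a positional gene of the trunk, stood at 95.5 CPM in the library labelled epicardial of testosterone sheep 255 and at 0 to 2.17 CPM in the other 7 epicardial libraries. The visceral libraries held 75.5 to 111 CPM of HOXC6, a range that takes in this library. Some other genes of that library lay with the epicardial ones. It held 2 reads of TNNT2 and 3 of MYL7, heart muscle genes with 0 reads in all 8 visceral libraries. Its summed brown adipocyte markers stood at 437 CPM. Those of epicardial libraries ran from 333 to 520 CPM and those of visceral ones from 93.6 to 182 CPM. Other values lay above those of every other epicardial library and within the visceral range. These were its summed adipocyte markers (11867 CPM against at most 10274), FABP4 (15179.5 against at most 9724) and FABP5 (4296 against at most 3077). Its summed heart muscle markers, at 19.4 CPM, lay within both ranges. This library is kept under its label. All 3 libraries belong to testosterone sheep. Some epicardial libraries also held many heart muscle transcripts, up to 21187 CPM when summed, which are described below.

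The depots of control sheep differed most in epicardial fat, where LPL was higher than in each of the other 3 depots while FABP4 and FABP5 were lower than in each. Over the 4 depots jointly, 7 of the 9 genes differed (edgeR's quasi-likelihood test, false discovery rate, FDR, under 0.05 over all genes tested), against 39.7% of all genes. ACSL1 (adjusted p = 0.0885) and GPIHBP1 (adjusted p = 0.0999) missed the threshold of that joint test. Between epicardial and visceral fat, 5 of the 9 differed (22.0% of all genes), with LPL and SLC27A1 higher in epicardial fat (11.4% of all genes) and FABP5, FABP4 and CAVIN1 lower (10.5%). Between epicardial and perirenal fat 5 differed as well (25.5%), with LPL and VLDLR higher (13.1%) and FABP5, FABP4 and CAVIN1 lower (12.4%). Between epicardial and subcutaneous fat 5 differed again (23.5%), with LPL and SLC27A1 higher (12.9%) and CAV1, FABP5 and FABP4 lower (10.7%). Between the depots away from the heart fewer of the 9 were called. Of the 9 genes, 0 differed between visceral and perirenal fat (0.598%), where 1, LPL, had an unadjusted p under 0.05 and DESeq2 called the same 1. Between visceral and subcutaneous fat 0 differed (13.6%), 4 had an unadjusted p under 0.05, and DESeq2 called 1, ACSL1. Between perirenal and subcutaneous fat 1 differed, LPL (23.2%). In pieces of tissue, fewer cells of a type and less RNA per cell cannot be told apart, and this holds for every level below.

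**Figure D1:**
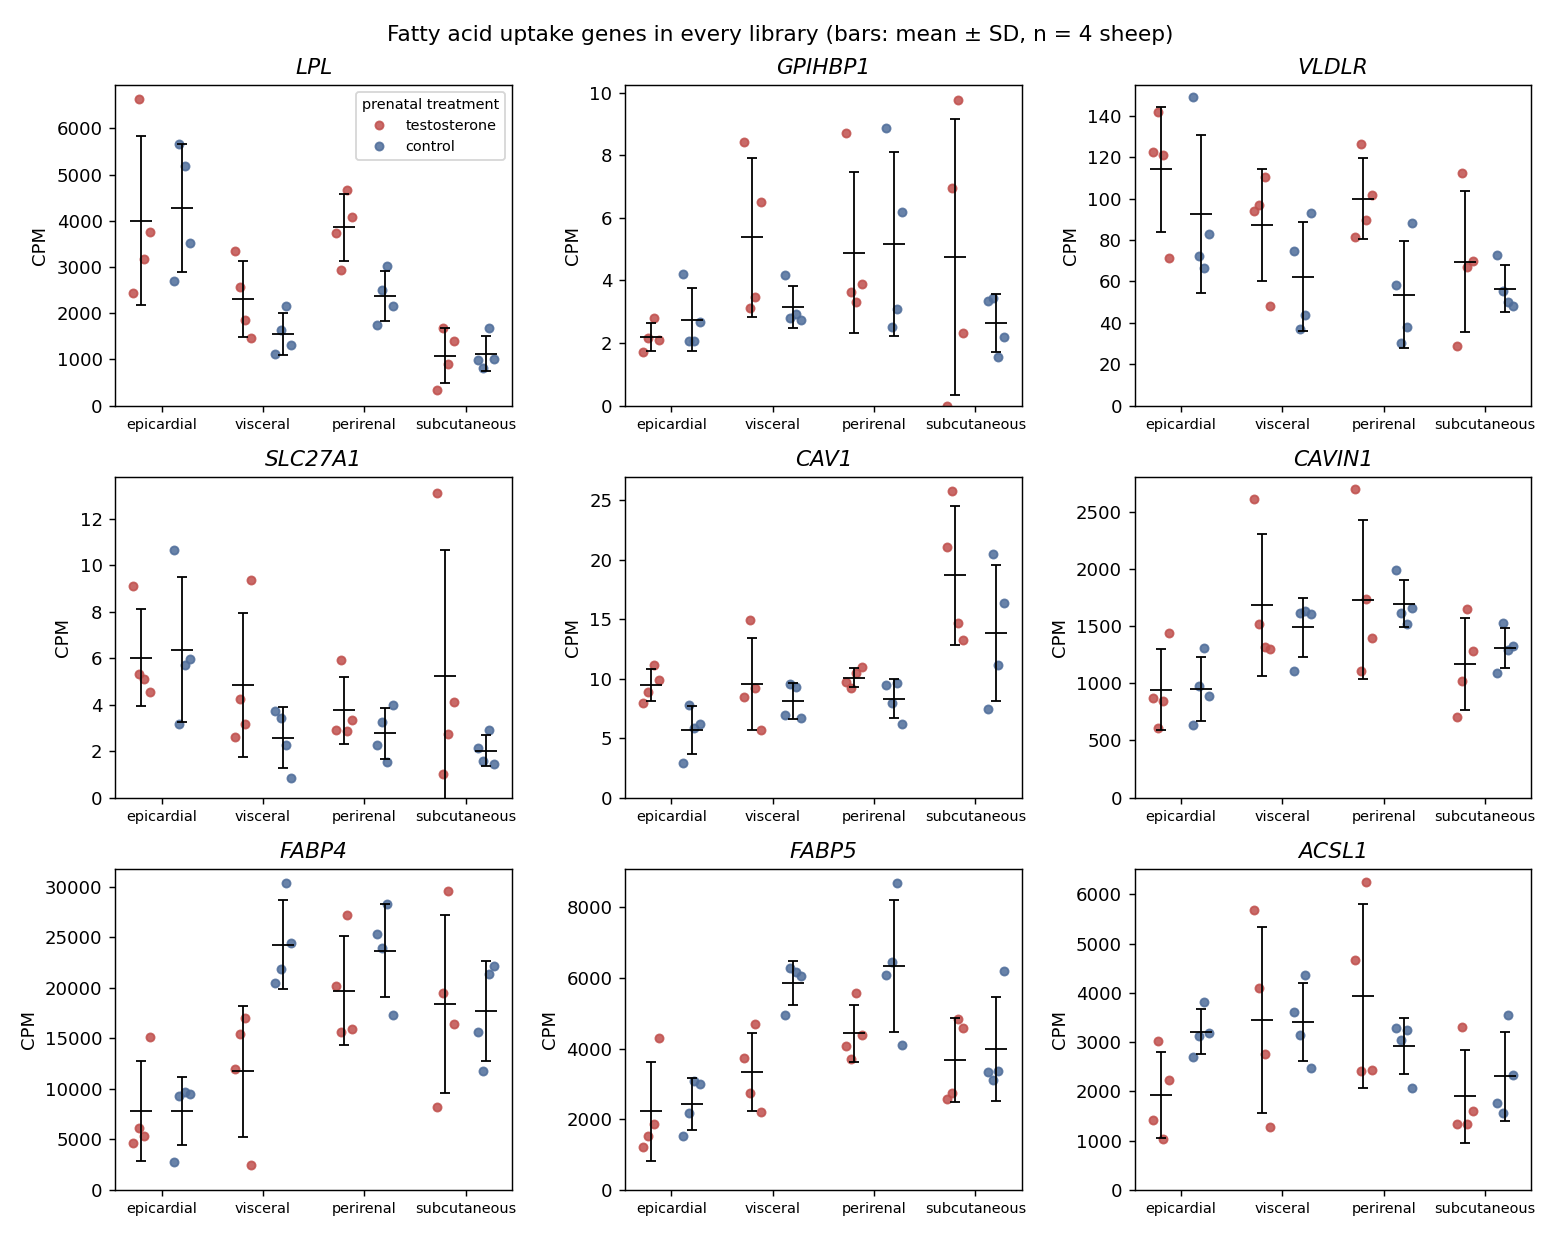
CPM of the 9 genes in every library (points), by depot and prenatal treatment, with testosterone sheep left of control sheep in each depot and bars for the mean ± SD of 4 sheep. By the means, LPL is highest in epicardial and lowest in subcutaneous fat in both treatments and FABP4 and FABP5 are lowest in epicardial fat, and the visceral libraries of testosterone sheep hold less FABP4 and FABP5 than those of control sheep.

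LPL, the enzyme that releases the fatty acids, had the widest range of depot means among the 9 genes in control sheep, with the highest depot mean 3.81 times the lowest. Its levels in control sheep were 2707, 5657, 5193 and 3522 CPM in epicardial fat, 1109.6, 1633, 2156 and 1309 in visceral fat, 1753, 2508, 3028 and 2159 in perirenal fat and 992, 818, 1669 and 1006 in subcutaneous fat. Every epicardial library lay above every visceral and every subcutaneous library, and every perirenal library lay above every subcutaneous one, while epicardial and perirenal libraries overlapped. The order held within each of the 4 control sheep, with epicardial above perirenal, perirenal above visceral and visceral above subcutaneous fat. LPL was 2.79-fold higher in epicardial than in visceral fat (log2 fold change 1.48, SE 0.18, adjusted p = 1.97e-05), 1.81-fold higher than in perirenal fat (0.86, SE 0.17, adjusted p = 0.00213) and 3.76-fold higher than in subcutaneous fat (1.91, SE 0.18, adjusted p = 9.84e-07). Perirenal fat held 2.08-fold more than subcutaneous fat (1.05, SE 0.18, adjusted p = 6.09e-04). The neighbouring depots in this order that did not differ past the threshold were perirenal and visceral fat, with a log2 difference of -0.63 for visceral minus perirenal (SE 0.17, adjusted p = 0.123), and visceral and subcutaneous fat (0.43, SE 0.17, adjusted p = 0.109). The epicardial contrasts and the perirenal to subcutaneous contrast held in all 10 alternatives tried for each.

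FABP4, the main fatty acid binding protein of adipocytes, went the other way. In control sheep it stood at 2762, 9259.6, 9724 and 9510.1 CPM in epicardial fat, 20489, 21826, 30340.3 and 24456 in visceral fat, 25311, 23909.8, 28252 and 17282 in perirenal fat and 15628, 11724, 21329 and 22140.1 in subcutaneous fat. Every epicardial library lay below every library of the other depots. The epicardial level was 0.316 of the visceral (log2 -1.66, SE 0.29, adjusted p = 6.76e-04), 0.317 of the perirenal (-1.66, SE 0.29, adjusted p = 7.83e-04) and 0.429 of the subcutaneous level (-1.22, SE 0.29, adjusted p = 0.00535). All 3 contrasts held in each of 10 alternatives. The low value of sheep 98 in epicardial fat stood apart from the other 3, and without that library the contrasts still passed.

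FABP5, a close relative that binds fatty acids in adipocytes and in other cells, followed FABP4. Its levels in control sheep were 1517, 2183, 3077 and 2996 CPM in epicardial fat, 4941, 6292, 6154 and 6056 in visceral fat, 6096, 6454, 8684 and 4115 in perirenal fat and 3339, 3101, 3352 and 6183 in subcutaneous fat. The epicardial libraries lay below all others, by a small margin over subcutaneous fat. The epicardial level was 0.412 of the visceral (log2 -1.28, SE 0.24, adjusted p = 0.00114), 0.379 of the perirenal (-1.40, SE 0.24, adjusted p = 6.34e-04) and 0.605 of the subcutaneous level (-0.73, SE 0.24, adjusted p = 0.0350). The last of these was lost without sheep 98 (adjusted p = 0.161), without its epicardial library alone (0.109), without sheep 131 (0.0860) or without sheep 201 (0.0684). Perirenal fat held more FABP5 than subcutaneous fat by a log2 difference of 0.68 (SE 0.24, adjusted p = 0.0503), which passed in DESeq2 (adjusted p = 0.0189) and without sheep 201 (0.00521). FABP4 and FABP5 lie on the same chromosome with 2 annotated genes between them, per a RefSeq gene table. They are related in sequence, and no source used here tells how reads matching both were counted. Over the 32 libraries their log2 CPM had a Pearson r of 0.867, a description of libraries that share depots and animals.

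Of the caveolar genes, CAVIN1, the coat protein of caveolae, was lower in epicardial fat than in 2 depots. Control sheep had 633, 981, 1308 and 886 CPM in epicardial fat, 1104, 1617, 1629 and 1608 in visceral fat, 1989.7, 1614, 1522 and 1661 in perirenal fat and 1092, 1525, 1288 and 1323 in subcutaneous fat. All epicardial libraries lay below all perirenal ones and overlapped with the other depots. CAVIN1 in epicardial fat was 0.551 of the perirenal level (log2 -0.86, SE 0.18, adjusted p = 0.00273) and 0.644 of the visceral level (-0.64, SE 0.18, adjusted p = 0.0175). The visceral contrast was lost without sheep 131 (adjusted p = 0.0814), without sheep 201 (0.109) or without the epicardial library of sheep 98 (0.0618). CAV1, the membrane-shaping protein of caveolae, had few reads, with 9 to 119 per library. Control sheep had 2.91, 7.82, 5.87 and 6.16 CPM of it in epicardial fat, 6.94, 9.53, 9.31 and 6.66 in visceral fat, 9.47, 7.95, 9.66 and 6.20 in perirenal fat and 7.43, 20.4, 11.2 and 16.4 in subcutaneous fat. Subcutaneous libraries were the highest in 3 of 4 sheep and spread widely. The epicardial level was 0.420 of the subcutaneous level (log2 -1.25, SE 0.28, adjusted p = 0.00376), with epicardial below subcutaneous fat in 4 of 4 sheep.

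The other membrane and lipoprotein proteins rested on fewer reads or on single libraries. SLC27A1, a fatty acid transport protein, had 4 to 36 reads per library, and in control sheep stood at 10.7, 3.17, 5.70 and 5.96 CPM in epicardial fat, 3.75, 3.45, 2.26 and 0.854 in visceral fat, 2.25, 3.28, 1.55 and 4.00 in perirenal fat and 2.16, 1.59, 2.90 and 1.46 in subcutaneous fat. Epicardial libraries lay above all subcutaneous ones and overlapped with the others. The log2 difference was 1.28 for epicardial minus visceral (SE 0.43, adjusted p = 0.0412) and 1.58 for epicardial minus subcutaneous fat (SE 0.46, adjusted p = 0.0190). Without the epicardial library of sheep 98 they were 1.02 (adjusted p = 0.152) and 1.34 (adjusted p = 0.0643). The visceral contrast was also lost without sheep 98, 132 or 201 (adjusted p = 0.122, 0.106 and 0.148) and the subcutaneous one without sheep 98 or 201 (0.108 and 0.0534). VLDLR, the receptor that holds triglyceride-rich particles at the surface, stood in control sheep at 149, 72.1, 66.4 and 82.8 CPM in epicardial fat, 74.7, 37.0, 43.9 and 93.3 in visceral fat, 58.4, 30.1, 37.7 and 88.2 in perirenal fat and 72.8, 55.5, 49.995 and 48.0 in subcutaneous fat. Sheep 98 was far above the others in epicardial fat, and the epicardial range overlapped with that of every other depot. VLDLR was 1.79-fold higher in epicardial than in perirenal fat (log2 0.84, SE 0.24, adjusted p = 0.0164), a call lost without the epicardial library of sheep 98 (adjusted p = 0.0626) and without sheep 98, 131 or 132 (0.144, 0.0811 and 0.0719).

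For GPIHBP1 and ACSL1 no pair of depots differed past the threshold in the edgeR fits of all libraries of either treatment. GPIHBP1, the carrier of LPL across the endothelium, was counted with 0 to 64 reads per library and ranged from 1.56 to 8.86 CPM over the control libraries. Perirenal fat had its highest mean in control sheep, at 5.16 ± 2.95 CPM (SD, n = 4), and subcutaneous fat its lowest, at 2.64 ± 0.92 CPM. Its log2 difference for epicardial minus perirenal fat was -0.83 (SE 0.33, adjusted p = 0.0768), and that for perirenal minus subcutaneous fat was 0.88 (SE 0.34, adjusted p = 0.0700), which passed the threshold without sheep 131 (1.29, adjusted p = 0.0302). ACSL1, the acyl-CoA synthetase of adipocytes, averaged 3212 ± 460 CPM in epicardial, 3401 ± 792 in visceral, 2915 ± 571 in perirenal and 2306 ± 899 in subcutaneous fat of control sheep (SD, n = 4 each). It came nearest to the threshold against subcutaneous fat, with a log2 difference of 0.52 for epicardial minus subcutaneous (SE 0.19, adjusted p = 0.0608) and of 0.56 for visceral minus subcutaneous fat (SE 0.19, adjusted p = 0.0633), and DESeq2 called both (adjusted p = 0.0315 and 0.0275).

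**Figure D2:**
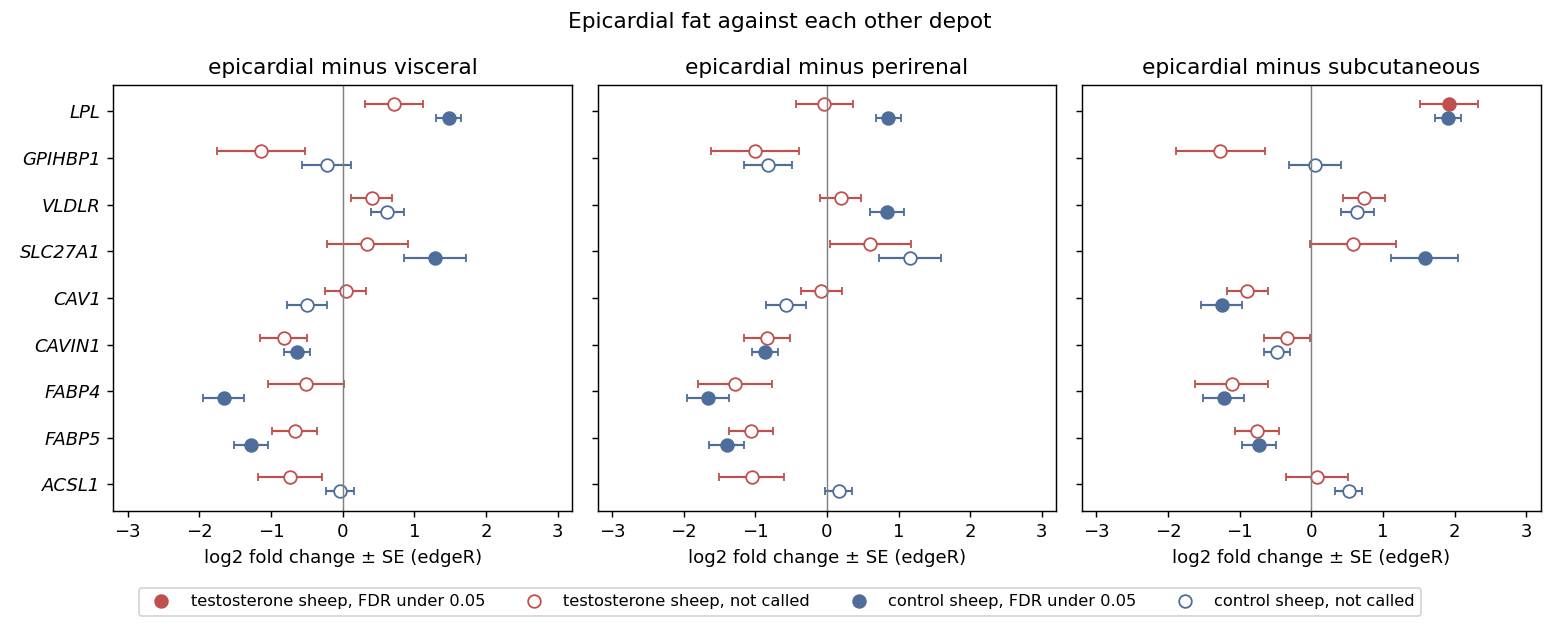
Log2 fold change of each gene for epicardial fat minus visceral, perirenal and subcutaneous fat, with its SE, fitted over the 16 libraries of testosterone sheep and over the 16 of control sheep with the sheep as a block. Filled points had an FDR under 0.05: in control sheep LPL was higher and FABP4 and FABP5 lower in epicardial fat in all 3 panels, while in testosterone sheep only LPL against subcutaneous fat was called.

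Epicardial fat carries heart muscle and other cells with it, and their transcripts varied beside these genes. Summed over the heart muscle markers, epicardial libraries held 19.4 to 21187 CPM in testosterone sheep and 18.6 to 13152 CPM in control sheep, and the libraries of the other depots 2.77 to 98.5 CPM. All 8 tested heart muscle markers were higher in epicardial fat than in each other depot of control sheep, and the defining genes TNNT2 and MYL7 had 0 counts outside epicardial fat. The richest epicardial libraries, of testosterone sheep 48 and control sheep 98, had the lowest LPL and the lowest FABP4 and the highest SLC27A1 of their treatment. The other control sheep, 131, 132 and 201, held 3216, 18.6 and 370 CPM of heart muscle transcripts. Their LPL was 5657, 5193 and 3522 CPM and their FABP4 9260, 9724 and 9510 CPM. Testosterone sheep 185, 233 and 255 held 256, 2695 and 19.4 CPM of these transcripts, with LPL at 6629, 3168 and 3764 CPM. FABP4 in them was 6123, 5379 and 15179.5 CPM. Within each treatment FABP4 fell as these transcripts rose, whereas LPL did not follow their order. Adipocyte markers also moved: summed, they were 4462 to 10274 CPM in epicardial, 12021 to 23733 in visceral, 10074 to 18774 in perirenal and 13173 to 18323 in subcutaneous fat of control sheep, and 3, 4 and 6 of 10 were lower in epicardial than in visceral, perirenal and subcutaneous fat, with 0 higher. The shares of all genes that were lower in these contrasts were 10.5%, 12.4% and 10.7%. Of 13 blood endothelial markers, 6, 7 and 6 were lower and 2, 0 and 0 higher in the same order. Fibroblast and progenitor markers stood at 5194 to 6588 CPM in epicardial, 3175 to 4001 in visceral, 2800 to 4059 in perirenal and 2631 to 4087 in subcutaneous fat of control sheep, so that the epicardial libraries lay above all others, and 4, 6 and 5 of 9 were higher in epicardial fat in the 3 contrasts and 1, 0 and 1 lower. Macrophage markers stood at 347 to 711 CPM in epicardial, 759 to 949 in visceral, 661 to 928 in perirenal and 382 to 588 in subcutaneous fat. In the brown adipocyte list EBF2, PPARGC1A and DIO2 were all higher in epicardial fat. The rest of that list, UCP1 and ELOVL3, had 3 and 0 reads summed over the epicardial libraries of control sheep. The shares of all genes that were higher in epicardial than in visceral, perirenal and subcutaneous fat were 11.4%, 13.1% and 12.9%. Without the epicardial library of sheep 98, LPL and FABP4 kept their calls in all 3 epicardial contrasts of control sheep, and FABP5 kept those against visceral and perirenal fat. The part of the other cell types in the levels of the uptake genes was not tested.

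**Figure D3:**
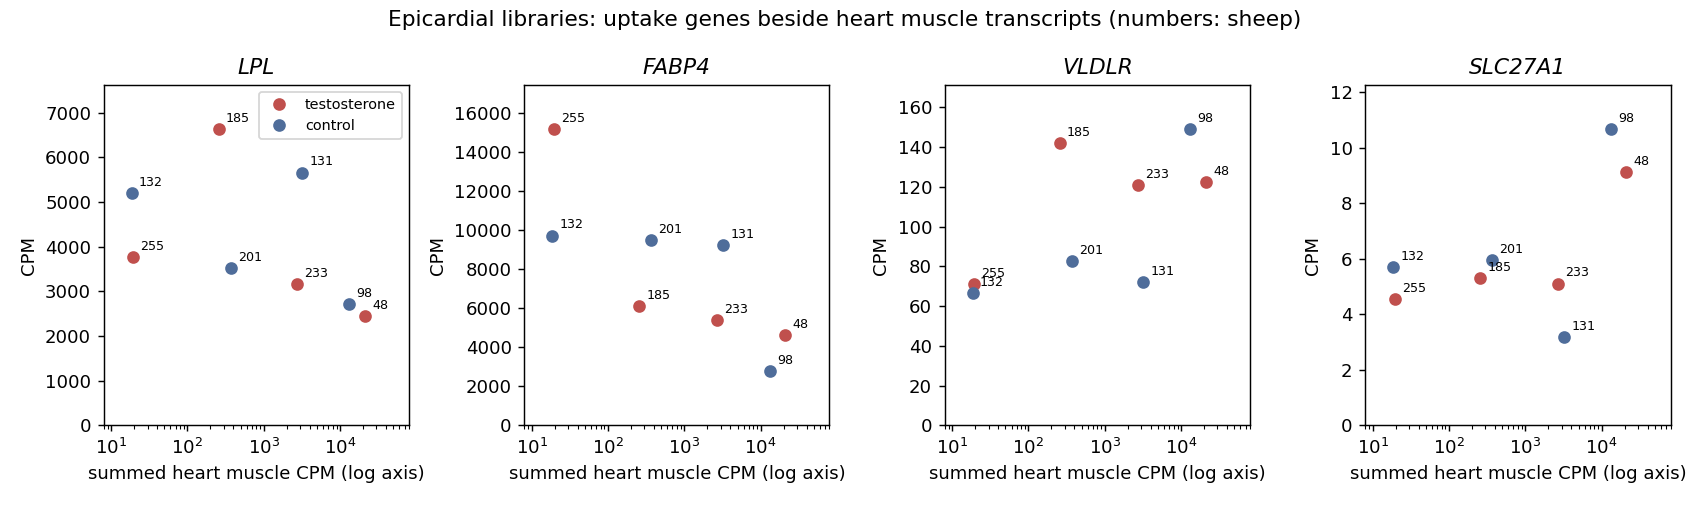
CPM of LPL, FABP4, VLDLR and SLC27A1 in the 8 epicardial libraries against the summed CPM of heart muscle markers on a log axis, with each point labelled by its sheep. The libraries of sheep 48 and 98, with 21187 and 13152 CPM of heart muscle transcripts, have the lowest LPL and FABP4 and the highest SLC27A1 of the 8.

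In testosterone sheep the depot means of LPL stood in the same order, with wider spread. Its levels were 2446, 6629, 3168 and 3764 CPM in epicardial fat, 3337, 2564, 1861 and 1459 in visceral fat, 3737, 2945, 4676 and 4079.9 in perirenal fat and 334, 1686, 892 and 1399.8 in subcutaneous fat. Epicardial and perirenal libraries lay above all subcutaneous ones, but in 3 of 4 sheep perirenal fat exceeded epicardial fat. LPL alone of the 9 genes differed among the 4 depots jointly (adjusted p = 0.0287, against 5.50% of all genes). It was 1.93 higher on the log2 scale in epicardial than in subcutaneous fat (SE 0.41, adjusted p = 0.0139, 5.07%) and 1.96 higher in perirenal than in subcutaneous fat (SE 0.41, adjusted p = 0.0236, 2.18%). These calls were lost without sheep 185 (adjusted p = 0.0864, 0.0640 and 0.0747) or sheep 233 (0.252, 0.121 and 0.177). Of the 9 genes, 0 differed between epicardial and visceral fat (2.11%; 2 at an unadjusted p under 0.05 and 0 by DESeq2), and 0 between epicardial and perirenal fat (2.48%; 4 at an unadjusted p under 0.05 and 1, FABP5, by DESeq2). Likewise 0 differed between visceral and perirenal fat (0.0797%; 0 and 0) and between visceral and subcutaneous fat (0.645%; 2 and 0).

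The libraries that stand apart bore on this. FABP4 in testosterone sheep stood at 4607, 6123, 5379 and 15179.5 CPM in epicardial fat, 11956, 15467, 16973 and 2485 in visceral fat, 20141, 15620.0, 27182 and 15931 in perirenal fat and 8214, 19440.0, 29578 and 16396 in subcutaneous fat. Sheep 255 had by far the highest epicardial and the lowest visceral value, and sheep 48 the lowest subcutaneous value, and these are the 3 libraries named above. Without them 4 genes differed among the 4 depots of testosterone sheep, LPL, FABP4, FABP5 and CAVIN1. Calls over all genes rose as well, jointly and in each epicardial contrast, as counted in the closing section, so the rise was not particular to these genes. FABP4 was then lower in epicardial fat by a log2 difference of -1.37 from visceral (adjusted p = 0.00139), -1.89 from perirenal (adjusted p = 1.13e-04) and -2.01 from subcutaneous fat (adjusted p = 1.60e-04). FABP5 and CAVIN1 were then lower in epicardial fat in all 3 contrasts too, and GPIHBP1 was lower than in subcutaneous fat (-1.79, adjusted p = 0.0474). Without sheep 255 as a whole, FABP4 and FABP5 were lower in epicardial fat in all 3 contrasts. With all 16 libraries the FABP4 differences were -0.51 (SE 0.53, adjusted p = 0.735), -1.29 (SE 0.52, adjusted p = 0.165) and -1.11 (SE 0.51, adjusted p = 0.274).

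Within a depot, prenatal testosterone changed 0 of the 9 genes past the threshold, and 0% of all genes in each of the 4 depots. Of all genes tested, 722 in epicardial, 1212 in visceral, 691 in perirenal and 622 in subcutaneous fat had an unadjusted p under 0.05. At an unadjusted p under 0.05 there were 2 of the 9 in epicardial, 2 in visceral, 3 in perirenal and 0 in subcutaneous fat, and DESeq2 called 0 of the 9 in each. Over the 558 alternative values tried for the effects of testosterone on these genes, the lowest adjusted p was 0.169. When the 4 libraries of a sheep were added up, 0 of the 9 were called (0.00654% of all genes, which is 1 gene, RHOJ), with 2 at an unadjusted p under 0.05. In the test of whether the effect differed between depots 0 were called (0.00687%, 1 gene, LOC105603774), with 0 at an unadjusted p under 0.05, and DESeq2 called 0 of the 9 in both. In simulated data such a fit recovered 24 of 96 changes of 1 log2 unit in subcutaneous fat, so changes of that size could be missed. The values below therefore describe these 8 sheep.

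**Figure D4:**
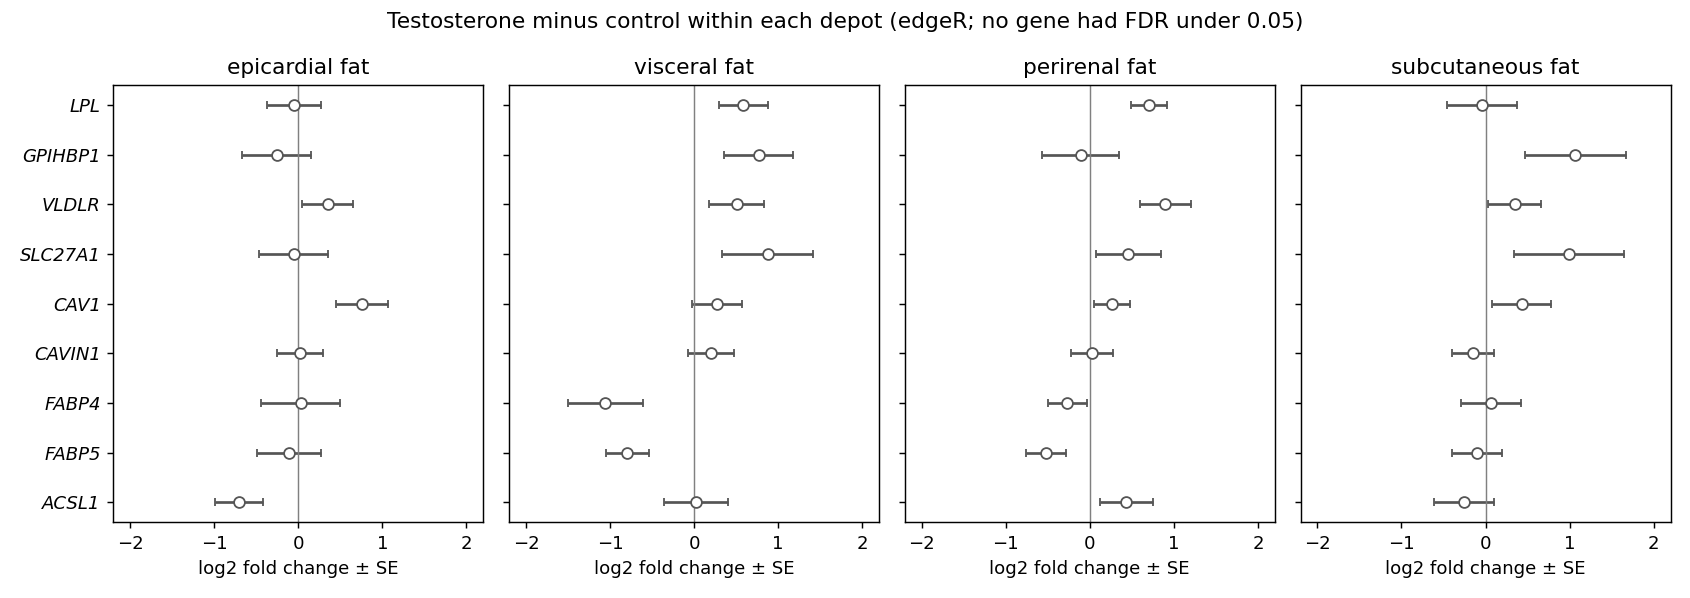
Log2 fold change of testosterone minus control sheep for each gene within each depot, with its SE, from edgeR fits of 8 libraries each. No point had an FDR under 0.05; the largest ratios to the SE are those of LPL in perirenal and FABP5 in visceral fat.

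In visceral fat the binding proteins did not overlap between the treatments. FABP4 was 11956, 15467, 16973 and 2485 CPM in testosterone sheep, against 20489, 21826, 30340.3 and 24456 CPM in control sheep. FABP5 was 3729, 2732, 4693 and 2197 CPM in testosterone sheep, against 4941, 6292, 6154 and 6056 CPM in control sheep. For both genes every testosterone library lay below every control library, beside 0% of all genes called in this depot. The share of all genes without overlap was not counted, and 1212 of 12860 genes here had an unadjusted p under 0.05. The log2 difference of FABP4 was -1.05 (SE 0.45, adjusted p = 0.520) and that of FABP5 was -0.79 (SE 0.25, adjusted p = 0.520). Sheep 255, whose visceral library stands apart, had the lowest value of both; without it the differences were -0.73 for FABP4 (adjusted p = 0.634) and -0.67 for FABP5 (adjusted p = 0.634). The summed adipocyte markers in visceral fat ran from 5895 to 15551 CPM in testosterone sheep and from 12021 to 23733 CPM in control sheep, and their part in the lower values was not tested.

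LPL in the same depot was 3337, 2564, 1861 and 1459 CPM in testosterone sheep, against 1109.6, 1633, 2156 and 1309 CPM in control sheep, with overlapping groups and a log2 difference of 0.59 (SE 0.30, adjusted p = 0.528); without sheep 255 it was 0.73 (adjusted p = 0.635). In perirenal fat LPL was 3737, 2945, 4676 and 4079.9 CPM in testosterone sheep, against 1753, 2508, 3028 and 2159 CPM in control sheep. Of the testosterone libraries 3 lay above all control libraries and that of sheep 185 lay below the highest control. The log2 difference was 0.70 (SE 0.21, adjusted p = 0.879), and it ran from 0.58 to 0.84 over the alternatives tried. VLDLR in perirenal fat was 81.7, 127, 89.8 and 102 CPM in testosterone sheep, against 58.4, 30.1, 37.7 and 88.2 CPM in control sheep, and only control sheep 201 reached into the testosterone range. Its log2 difference was 0.90 (SE 0.31, adjusted p = 0.914), and over all depots it was 0.58 (SE 0.21, adjusted p = 0.706). FABP5 in perirenal fat was 4082, 3712, 5569 and 4379.6 CPM in testosterone sheep, against 6096, 6454, 8684 and 4115 CPM in control sheep, which overlapped (log2 -0.52, SE 0.23, adjusted p = 0.924).

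In epicardial fat CAV1 was 7.98, 8.86, 11.1 and 9.87 CPM in testosterone sheep, against 2.91, 7.82, 5.87 and 6.16 CPM in control sheep, without overlap (log2 0.75, SE 0.31, adjusted p = 0.856). Of 12793 genes tested in this depot, 722 had an unadjusted p under 0.05, and the share without overlap was not counted. ACSL1 there was 1417, 3013, 1041 and 2227 CPM in testosterone sheep, against 2704, 3129.6, 3819 and 3193 CPM in control sheep, and only testosterone sheep 185 reached the control range (log2 -0.71, SE 0.29, adjusted p = 0.856). Marker sums of the same libraries were compared by their ranges only, and 0 of the 12793 genes were called in this depot. ARGLU1 and LUC7L3 were the measured genes of a list of nucleus-retained transcripts. Their sum was 2950 to 8057 CPM in epicardial fat of testosterone sheep and 1733 to 2918 CPM in that of control sheep. Whether it reflects RNA quality was not tested. Summed fibroblast and progenitor markers were 3627 to 4923 CPM in testosterone sheep and 5194 to 6588 CPM in control sheep. Summed brown adipocyte markers were 333 to 436.7 CPM in testosterone sheep and 436.9 to 520 CPM in control sheep. These sums were without overlap between the treatments, while those of the other marker lists overlapped. Their part in the values of CAV1 and ACSL1 was not tested. The log2 differences of LPL and FABP4 in this depot were -0.05 (interval of 2 SE from -0.69 to 0.58) and 0.03 (from -0.91 to 0.96). Without sheep 255 the epicardial log2 difference of FABP4 was -0.48 (adjusted p = 0.794) and that of FABP5 -0.62 (adjusted p = 0.599). Without the epicardial libraries of sheep 48 and 98, a choice made after seeing the data, the difference of VLDLR was 0.64 (adjusted p = 0.785) and that of CAV1 0.62 (adjusted p = 0.785). In subcutaneous fat all 9 genes overlapped between treatments. LPL there was 334, 1686, 892 and 1399.8 CPM in testosterone sheep, against 992, 818, 1669 and 1006 CPM in control sheep (log2 -0.04, interval of 2 SE from -0.87 to 0.78). Without sheep 48 the log2 difference was 0.26 (adjusted p = 0.999). The lowest testosterone value is that of sheep 48, in whose library 0 reads of GPIHBP1 were counted, which allows up to 3.94 CPM by counting error alone.

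In visceral and perirenal fat the means of LPL were higher and those of FABP4 lower in testosterone sheep, with neither gene called. Reads of LPL and FABP4 were set against each other within each library, a ratio chosen after the levels were seen. In perirenal fat testosterone sheep had 17.2 to 25.6 reads of LPL per 100 reads of FABP4, and control sheep 6.93 to 12.5. In visceral fat testosterone sheep had 11.0 to 58.7, and control sheep 5.35 to 7.48. In both depots the groups did not overlap, with geometric means 2.00-fold and 3.73-fold higher in testosterone sheep. An exact two-sided permutation test gave p = 0.0286 for each (n = 4 against 4), the smallest p this design allows, and the adjusted p was 0.114 over 8 such tests, which also covered FABP5 per FABP4. These tests used the same libraries that led to the ratio, and the adjustment leaves out that choice, so they add no support. How many other pairs of genes would separate the treatments in this way was not counted. In epicardial fat the ratio was 24.8 to 108 in testosterone sheep and 37.0 to 98.0 in control sheep, and in subcutaneous fat 3.02 to 8.67 and 4.54 to 7.83 in the same order of treatments, with overlap in both. The highest visceral value came from sheep 255, whose library stands apart. Without it, a choice made after seeing the data, the visceral testosterone libraries ran from 11.0 to 27.9, 2.74-fold above the control libraries by geometric means, and the exact two-sided permutation test gave p = 0.0571 (n = 3 against 4), the smallest it can give there.

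**Figure D5:**
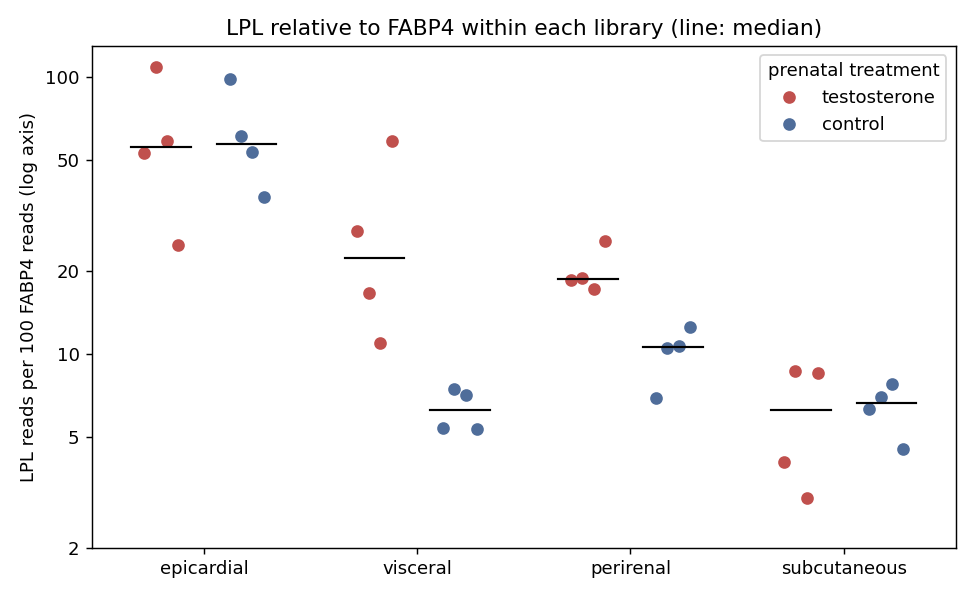
Reads of LPL per 100 reads of FABP4 in each library on a log axis, by depot, with testosterone sheep left of control sheep and a line at the median of 4. The ratio was chosen after the levels of the same libraries were seen. Perirenal and visceral libraries of testosterone sheep lie above all control libraries of the same depot, from 17.2 to 25.6 against 6.93 to 12.5 and from 11.0 to 58.7 against 5.35 to 7.48, while the epicardial and subcutaneous groups overlap.

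A wider list of 69 genes around the same route, of which 66 had rows and 51 passed the filter in control sheep, gave the setting. In control sheep 29 of 51 differed among the depots jointly, against 39.7% of all genes. Between epicardial and visceral fat 9 were higher and 8 lower in epicardial fat (11.4% and 10.5% of all genes), between epicardial and perirenal fat 9 and 8 (13.1% and 12.4%), and between epicardial and subcutaneous fat 10 and 12 (12.9% and 10.7%). The medians over the list were 0.04, -0.04 and -0.12 on the log2 scale, beside 0.04, 0.04 and 0.01 over all genes tested. In testosterone sheep 3 of 52 differed jointly (5.50% of all genes), FABP3 and FABP7 among them. Of the same 52, 0 differed between epicardial and visceral fat (2.11%; 12 at an unadjusted p under 0.05 and 3 by DESeq2), 1 between epicardial and perirenal fat (2.48%), FABP7, which was higher, and 4 between epicardial and subcutaneous fat (5.07%), of which 3 were higher and 1 was lower. For testosterone against control sheep within a depot, the lowest adjusted p on the list was 0.520, in visceral fat.

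The joint counts of the smaller groups that follow are to be read against the same 39.7% of all genes, and those of the membrane transporters, the other binding proteins and the endothelial genes lie near it. Over the genes named from the list, 49 epicardial contrasts of control sheep were called, and all kept their sign in the 490 alternative values. Of the 49, 21 were lost without at least 1 sheep, among them the 3 each of FABP3 and ACSM3, the visceral and perirenal ones of ANGPTL4 and GOT2, the visceral and subcutaneous ones of VEGFB, and those of PACSIN3, PACSIN2 and FABP7.

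Among genes that act on LPL and lipoproteins, 9 of 13 differed jointly in control sheep. ANGPTL4, which unfolds and inactivates LPL, was lower in epicardial than in visceral, perirenal and subcutaneous fat (log2 -1.40, SE 0.40, adjusted p = 0.0172; -1.23, SE 0.40, adjusted p = 0.0315; -1.97, SE 0.39, adjusted p = 0.00155), at 1.94, 2.42, 2.76 and 2.88 CPM in epicardial, 2.78, 5.26, 16.6 and 5.12 in visceral, 5.26, 7.80, 7.73 and 2.60 in perirenal and 5.27, 9.56, 12.5 and 11.8 in subcutaneous fat. Epicardial libraries lay below all subcutaneous ones and overlapped with visceral and perirenal ones. The visceral value of sheep 132 stood far above the others, and without that sheep the visceral difference was -0.82 (adjusted p = 0.215) and the perirenal one -1.13 (adjusted p = 0.0728). PCSK6, a protease of the family that cleaves LPL, was higher in epicardial fat in all 3 contrasts, 1.93-fold, 2.34-fold and 2.47-fold. SORL1, a sorting receptor that can bind LPL, was higher in epicardial than in subcutaneous fat (log2 1.26, SE 0.17, adjusted p = 6.87e-05).

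Among other membrane transporters 3 of 7 differed jointly. SLC27A3, a relative of SLC27A1, was higher in epicardial fat than in visceral (log2 1.86), perirenal (1.67) and subcutaneous fat (2.37, SE 0.26, adjusted p = 5.61e-06), with 13.4 ± 4.24 CPM in epicardial and 2.65 ± 1.10 CPM in subcutaneous fat of control sheep (SD, n = 4 each). SLC27A6 was higher than in visceral and perirenal fat (1.66 and 1.67) and did not pass against subcutaneous fat (0.18, SE 0.33, adjusted p = 0.743), and GOT2, a mitochondrial transaminase also described as a membrane fatty acid binding protein, was higher in all 3 (0.64, 0.62 and 0.92), of which those against visceral and perirenal fat were 0.32 and 0.29 without the epicardial library of sheep 98 (adjusted p = 0.120 and 0.153). Of 5 other binding proteins 2 differed jointly. FABP7 was higher in epicardial than in perirenal fat (2.04, SE 0.48, adjusted p = 0.00549). FABP3, the heart-type member, was higher in epicardial fat in all 3 contrasts (4.40, 3.67 and 4.12), with 2.49 against perirenal fat (adjusted p = 0.0604) without the epicardial library of sheep 98. The sizes of these differences rest on few reads in the depots compared. Control means there were 0.904 CPM for FABP7 in perirenal fat and 0.651 to 0.905 CPM for FABP3. FABP3 stood at 351, 4.13, 62.6 and 0.190 CPM in epicardial fat of testosterone sheep and at 70.8, 14.7, 0.345 and 2.26 CPM in that of control sheep, and the libraries with most FABP3 were those with most heart muscle transcripts.

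Of the other caveolar genes 4 of 6 differed jointly: CAV2 was lower in epicardial than in subcutaneous fat, at 0.499 of its level (adjusted p = 1.83e-04), as was PACSIN2 (log2 -0.45), while CAVIN2 was higher (0.83, SE 0.16, adjusted p = 9.25e-04) and PACSIN3 was higher than in visceral fat (1.22, SE 0.35, adjusted p = 0.0215). PACSIN3 stood at 74.3 CPM in epicardial fat of control sheep 98, a library rich in heart muscle transcripts, against 13.6 to 25.0 CPM in the other epicardial control libraries and a mean of 12.8 CPM in visceral fat of control sheep, and without that library the difference was 0.63 (adjusted p = 0.0738). Of the other acyl-CoA synthetases 4 of 6 differed: ACSM1 and ACSL4 were lower in epicardial fat in all 3 contrasts (-2.17, -2.07 and -1.46 for ACSM1, -0.68, -0.58 and -0.82 for ACSL4), ACSM3 was higher in all 3 (1.71, 1.78 and 2.16), and ACSS2 was lower than in subcutaneous fat (-1.18). Of 7 endothelial genes 3 differed jointly: VEGFB, a growth factor linked to endothelial fatty acid transport, was lower in epicardial fat in all 3 contrasts (-0.61, -0.93 and -0.54), its receptor FLT1 was lower than in visceral and perirenal fat (-1.02 and -0.85), and NRP1, a co-receptor, did not pass in any epicardial contrast (0.15, 0.40 and -0.15). Of 7 fatty acid sensors 4 differed jointly. FFAR3, a receptor for the short-chain fatty acids of fermentation, was lower in epicardial fat in all 3 contrasts (-3.61, -4.07 and -2.92), with 0.39 ± 0.45 CPM in epicardial against 7.52 ± 2.05 CPM in perirenal fat of control sheep (SD, n = 4 each). Its relative FFAR2 was lower than in visceral (-2.42) and perirenal fat (-1.67), and RXRA, the partner of the PPAR receptors, was lower than in subcutaneous fat (-0.72). FFAR3 and FFAR2 averaged 0.39 and 0.71 CPM in epicardial fat of control sheep, near the floor of 3 counts there (0.518 to 0.969 CPM). The sizes of their log2 differences rest on few reads. FFAR4, which senses long-chain fatty acids, was higher than in visceral (1.25) and subcutaneous fat (2.10).

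Finally, the genes whose log2 CPM ran most like each member were sought over the 32 libraries among 14156 genes, as a description with no test, since libraries share depots and animals. LPL ran most like ZNF532 (Pearson r = 0.871) and ALAD (0.844), FABP4 most like PARVA (0.951) and EMC7 (0.925), and FABP5 most like CAPN2 (0.886) and LOC101115115 (0.884). CAVIN1 had IPO5 (0.837) and MRPL55 (0.822) as nearest genes, ACSL1 had PCBD1 (0.827) and RCSD1 (0.767), and SLC27A1 had AEBP1 (0.794) and MGAT5 (0.786). The others reached at most 0.748, with CDYL2 and C14H16orf74 nearest to GPIHBP1, SLC22A3 and RAB3C to VLDLR, and CIDEC and ABHD14B to CAV1. Among the members themselves LPL had an r of -0.14 with FABP4 and of 0.49 with ACSL1, and SLC27A1 had an r of -0.73 with FABP4.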

How the data were processed

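Messenger RNA of 32 libraries, 4 depots from each of 8 sheep, was read from the 3′ end with a QuantSeq kit on RNA of integrity 7 or more, per the labels' protocols. The authors deposited raw read counts per gene, whole numbers that are not normalized. The submitters' processing notes name DESeq2 1.24.0 and R 3.6.3, featureCounts 1.6.1, STAR, Trimmomatic 0.36, and FastQC 0.11.5 with MultiQC 0.9. The genome build was, like annotation and strand setting, not given in the sources used here; genes that overlap or resemble each other may therefore share reads.

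CPM were computed here on TMM-scaled library sizes (factors 0.862 to 1.14), and a floor of 3 counts corresponds to 0.375 to 3.94 CPM per library, which covers counting error only. Differences come from edgeR 4.0.16 in R 4.3.3 (quasi-likelihood test, robust fit, filterByExpr at 10 counts, p-values adjusted by Benjamini and Hochberg's method over all genes tested). Every adjusted p printed comes from that test unless another is named. Each SE was taken as the absolute log2 fold change over the root of the F statistic. Depots were compared within the 16 libraries of 1 treatment with the sheep as a block, testosterone within the 8 libraries of 1 depot and on counts summed over depots, and the interaction on all 32. The fits were tested on simulated data without sheep effects. For testosterone in subcutaneous fat they recovered 24 of 96 changes of 1 log2 unit and 87 of 95 changes of 2. Among 11713 unchanged genes 2 were called. For epicardial against subcutaneous fat in control sheep they recovered 55 of 99 and 85 of 100, with 5 of 13213 unchanged genes called. The block rests on the design, in which 1 sheep gave all depots: 41 of 48 correlations of deviations within a sheep were over 0.1, with a mean of 0.230. Of 48 replicate pairs 0 held identical counts. Alternatives were DESeq2 1.42.0, RLE factors, no filter, a filter of 1 CPM in 4 libraries, no block, and leaving out sheep or named libraries.

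The members and lists were chosen with earlier results of these data known. All members are named, and of the wider list the up to 4 genes per group with the smallest joint adjusted p among depots of control sheep. The values of 1 gene that this rule picks are not reported here. Gene names are those of the table, and a RefSeq table of the assembly ARS-UI_Ramb_v3.0 gave the neighbours of FABP4.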

Additional observations from a re-analysis of the deposited data

Results flagged for a closer look

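In 10 of the 72 groups of 4 libraries tested, 1 library lay so far from the other 3 that Dixon's test for a single outlier passed its 95% critical value, a result that chance alone gives in about 1 in 20 groups. FABP4 in epicardial fat was 15179.5 CPM in testosterone sheep 255, against 4607 to 6123 CPM in the other testosterone sheep, and 2762 CPM in control sheep 98, against 9260 to 9724 CPM in the other control sheep. SLC27A1 in epicardial fat was 9.11 CPM in testosterone sheep 48, against 4.55 to 5.31 CPM in the others, and in perirenal fat 5.92 CPM in testosterone sheep 185, against 2.87 to 3.32 CPM. CAVIN1 in visceral fat was 2608 CPM in testosterone sheep 48, against 1303 to 1515 CPM in the other testosterone sheep, and 1104 CPM in control sheep 98, against 1608 to 1629 CPM in the other control sheep. GPIHBP1 was 8.72 CPM in perirenal fat of testosterone sheep 48, against 3.30 to 3.88 CPM, and 4.16 CPM in visceral fat of control sheep 98, against 2.73 to 2.93 CPM. ACSL1 in subcutaneous fat was 3305 CPM in testosterone sheep 185, against 1334 to 1609 CPM in the others. FABP5 in subcutaneous fat was 6183 CPM in control sheep 201, against 3101 to 3352 CPM in the others. Of the 10 values, 3 each came from testosterone sheep 48 and control sheep 98. The epicardial libraries of those sheep held the most heart muscle transcripts of their treatment. Of their outlying values, only SLC27A1 of sheep 48 and FABP4 of sheep 98 came from these epicardial libraries. The library labelled epicardial of testosterone sheep 255 was the one with a HOXC6 level in the visceral range. The part of these features in the outlying epicardial values was not tested.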

How the results depend on the processing

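For the 26 depot differences called for single genes, 39 of 263 alternative values missed the threshold. None of the pairwise differences changed direction, while the joint tests among the 26 have no direction. In control sheep the joint calls of VLDLR, SLC27A1, CAV1 and CAVIN1 were each lost without at least 1 sheep, with adjusted p up to 0.261, 0.161, 0.0798 and 0.0599. Without the replicate block in the depot fits, VLDLR lost its joint call (adjusted p = 0.220) and its call between epicardial and perirenal fat (0.123), SLC27A1 its call between epicardial and visceral fat (0.0584) and FABP5 its call between epicardial and subcutaneous fat (0.0681). The number of genes called was then 6 in the joint test of control sheep and 4 in each of the 3 epicardial contrasts, and no other call of control or testosterone sheep changed. In testosterone sheep DESeq2 called 2 jointly and 1 between epicardial and perirenal fat. Without the 3 libraries that stand apart, 4 were called jointly, 3 between epicardial and visceral fat, 3 between epicardial and perirenal fat and 5 between epicardial and subcutaneous fat. Leaving out each sheep in turn gave 0 to 3 jointly, 0 to 2 against visceral, 0 to 2 against perirenal and 0 to 3 against subcutaneous fat for the epicardial contrasts, and 0 to 1 between perirenal and subcutaneous fat. In control sheep leaving out each sheep gave 4 to 6 jointly, 3 to 6 between epicardial and subcutaneous fat, 0 to 1 between visceral and subcutaneous fat and 1 to 3 between perirenal and subcutaneous fat. DESeq2 called 8 between epicardial and subcutaneous fat, 1 between visceral and perirenal fat, 1 between visceral and subcutaneous fat and 2 between perirenal and subcutaneous fat. With no filter 1 was called between visceral and subcutaneous fat, and 2 were called between perirenal and subcutaneous fat with RLE factors, with no filter, with the CPM filter and without the epicardial library of sheep 98. Without that library 3 were called between epicardial and visceral fat. The cause of these shifts was not tested. Of 1744 alternative values of differences that were not called, 49 passed the threshold and 103 changed sign.

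Counts over all genes moved more in testosterone than in control sheep. Jointly 759 genes were called in testosterone sheep, with 134 to 1603 when a sheep was left out, 1930 by DESeq2, 482 without the block and 2627 without the 3 libraries that stand apart. Between epicardial and perirenal fat of testosterone sheep the counts were 343, 45 to 1628, 1273, 156 and 2830 in the same order, between epicardial and subcutaneous fat 700, 147 to 906, 1192, 462 and 1366, and between epicardial and visceral fat 291, 43 to 1115, 747, 152 and 1793. Without the epicardial library of sheep 48 these 3 contrasts gave 136, 393 and 120. In control sheep 5450 were called jointly, with 3481 to 4277 when a sheep was left out. For testosterone, DESeq2 called 11 genes in epicardial, 21 in visceral, 9 in perirenal and 12 in subcutaneous fat and 61 over depots, where edgeR called 0, 0, 0, 0 and 1. Depth limits the low genes most: GPIHBP1, SLC27A1 and CAV1 have at most 119 reads per library, and the shallowest library holds 784135.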
